A study of Homo sapiens with 3 samples.

Results

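The 9 genes described here encode enzymes that make deoxynucleotides and pyrimidine nucleotides: RRM1, RRM2, TYMS, TK1, DUT, DCK, CTPS1, UMPS and DTYMK. They were named one by one and found by their symbols in an RNA-seq table of 44591 genes, which held all 9. They were chosen by their measured ratios of RBCK1-depleted to control cells in these same libraries as well as by their role, so those ratios are given as a description with no test.

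Cells that copy their DNA need a balanced supply of the deoxynucleoside triphosphates. Ribonucleotide reductase, built from the large subunit RRM1 and a small subunit, RRM2 or RRM2B, removes oxygen from ribonucleotides to give the deoxy forms. Thymidylate is made de novo by TYMS or salvaged by thymidine kinases, and the pyrimidine ring itself is made by CAD, DHODH and UMPS and turned into cytidine nucleotides by CTPS1. RRM2, TYMS and TK1 are known for high transcript levels in cells that are entering or passing through S phase.

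RNA came from Caki-1, an established human clear cell renal cell carcinoma line with wild-type p53. Cells were transfected with a non-targeting siRNA (si-Control) or with an siRNA that targets RBCK1. There were 2 of these, which the labels call si-HOIL-1#1 and si-HOIL-1#2 and which are named si-RBCK1 #1 and si-RBCK1 #2 here. RBCK1, also called HOIL-1, is a subunit of the linear ubiquitin chain assembly complex, and the study asked which transcripts differ after its depletion. RNA was taken 48 h after transfection, and the general siRNA concentration in the methods is 10 nmol/L. Each condition had 1 library, 3 in all, so no value below has a replicate check and no p-value was computed. The siRNAs are different reagents and not replicates, and both comparisons share the si-Control library.

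Levels are in RPKM, reads divided by the length of the gene and the depth of its library, and can be compared between genes because they are per length. The library totals behind the RPKM values, recovered from short RNAs, were 36926834 reads in control cells, 40442939 after si-RBCK1 #1 and 36344428 after si-RBCK1 #2. RBCK1 itself stood at 33.3 RPKM in control cells, 9.97 after si-RBCK1 #1 and 12.3 after si-RBCK1 #2, that is, 29.9% and 36.8% of its control level. Of 8 renal epithelial markers 6 had a mean of at least 1 RPKM, with PAX8 at 124 RPKM in si-Control, while PAX2 and KRT19 did not. The 8 markers summed to between 1118 and 2039 RPKM per library, most of it VIM. They differed between libraries in both directions, and their part in the results below was not tested. VIM stood at 664, 1512 and 1392 RPKM and KRT8 at 65.6, 172 and 238 RPKM in the order si-Control, si-RBCK1 #1 and si-RBCK1 #2, both at least 2-fold higher with both siRNAs, while PAX8 was lower at 82.5 and 107 RPKM. No single marker of blood was above 0.315 RPKM and none of endothelium above 0.0368 RPKM in any library.

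The sites of the siRNAs are shown because the libraries compared differ by these reagents. The 7 capital letters are the bases that pair with positions 2 to 8 of the guide strand, its seed. Both sites lie in the coding sequence of RBCK1 on the plus strand of chromosome 20 in GRCh38, at chr20:419577-419595 in exon 6 of 12 for si-RBCK1 #1 and at chr20:427327-427345 in exon 9 for si-RBCK1 #2.
si-RBCK1 #1: ggtgcaccttcATCAACAa
si-RBCK1 #2: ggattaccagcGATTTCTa
The seed match of si-RBCK1 #1 stood in the longest coding transcript of 0 of the 9 enzymes, against 22.3% of 19669 such transcripts. That of si-RBCK1 #2 stood in 1 of the 9, RRM1, with 2 matches, against 25.9%. Neither full site was in any of the 9.

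Each enzyme gene averaged 1 RPKM or more across the libraries, as did 12403 genes in all. With si-Control they ran from 6.53 RPKM for UMPS to 103.7 RPKM for TK1. TK1 was above 95.3% of protein-coding genes past this mean in that library, DTYMK above 85.5%, RRM2 above 57.3% and UMPS above 36.3%. TYMS at 36.0 and RRM1 at 34.8 RPKM were neighbours in this order, as were CTPS1, DCK and DUT between 20.7 and 24.0 RPKM. With 1 library there is no spread by which such neighbours could be told apart. In both si-RBCK1 libraries TK1 remained the highest and UMPS the lowest of the 9.

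**Figure D1:**
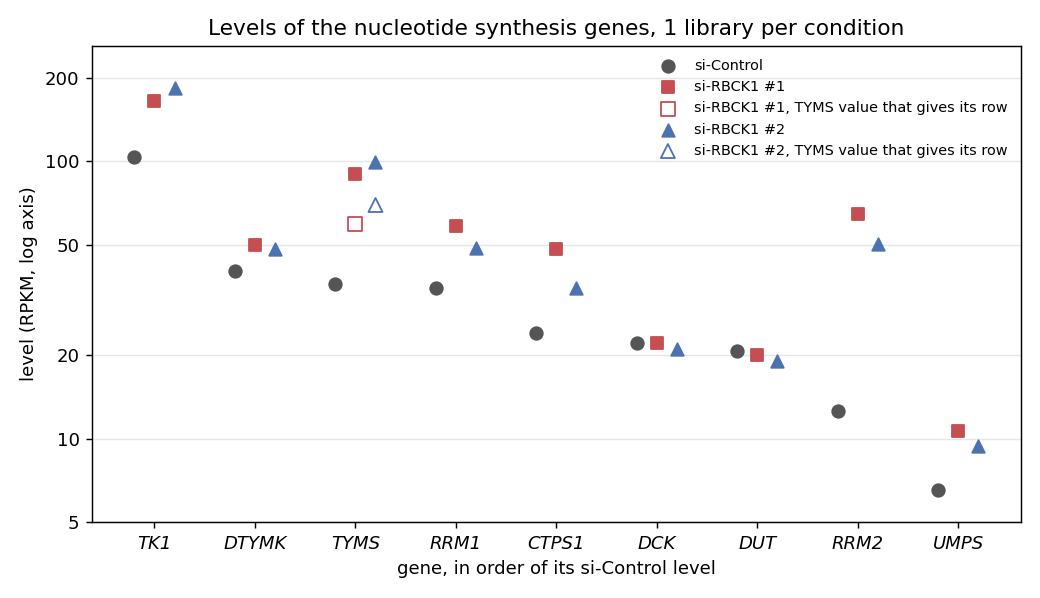
Level of each enzyme gene in RPKM on a log axis, with 1 point per library and genes in order of their si-Control level. RRM2 moved from 12.6 RPKM in si-Control to 64.3 and 50.2 RPKM. DUT and DCK stood between 19.1 and 22.2 RPKM in all 3 libraries. The open TYMS symbols are the values that give that row its listed log2 fold change but not its listed mean.

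Ratios below are differences of log2(RPKM + 1), a scale that understates the change of low genes. Of the 9 genes, 8 were higher than si-Control with si-RBCK1 #1, where 51.5% of all 12403 genes were. With si-RBCK1 #2, 7 of 9 were higher, where 53.5% of all genes were. The same 7 were higher with both siRNAs, beside 43.3% of all genes, and DUT was lower with both, beside 38.2% of all genes. The median ratio of the 9 was 0.66 with si-RBCK1 #1 and 0.48 with si-RBCK1 #2, and the median of all genes was 0.02 and 0.03. Nothing is read from these shares, since the same contrast was used to choose the genes. Counting intervals below are exact 95% Clopper-Pearson intervals on reads recovered from the RPKM values, given as log2 with no pseudocount, and cover counting error only. In bulk RNA, fewer cells of a type and less RNA per cell cannot be told apart, and the same holds for more.

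The largest ratios of the group were those of RRM2, 1 of the subunits of ribonucleotide reductase. RRM2, the small subunit that carries the tyrosyl radical, lies on the plus strand of chromosome 2 at chr2:10262695-10271546 (hg19, as are the other gene positions). It stood at 12.6 RPKM in control cells, 64.3 RPKM after si-RBCK1 #1 and 50.2 RPKM after si-RBCK1 #2, from 1594, 8927 and 6269 reads. The level was 5.11-fold and 4.0-fold the control level, with log2 ratios of 2.27 and 1.92. Only 11 of the 12403 genes had a higher ratio with si-RBCK1 #1 and 22 with si-RBCK1 #2. Both counting intervals, 2.28 to 2.43 and 1.92 to 2.08, lay above the other members that had one.

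RRM1, the large subunit with the catalytic and regulatory sites, lies on the plus strand at chr11:4115915-4160155. Its levels were 34.8 RPKM in control cells, 58.4 RPKM after si-RBCK1 #1 and 48.8 RPKM after si-RBCK1 #2. RRM1 had log2 ratios of 0.73 and 0.48, with intervals of 0.70 to 0.80 and 0.43 to 0.54. RRM1 was thus higher in both libraries but by less than RRM2. The ratio of the RRM2 level to the RRM1 level within a library went from 0.361 with si-Control to 1.10 with si-RBCK1 #1 and 1.03 with si-RBCK1 #2. The transcript in shorter supply was RRM2 in control cells, and in the si-RBCK1 libraries the pair stood near parity. RRM2B, the alternative small subunit known as a p53 target, had log2 ratios of 0.42 and 0.35. The RRM2 level was 0.712 of the RRM2B level with si-Control and 2.68 and 2.21 times it with the siRNAs.

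**Figure D2:**
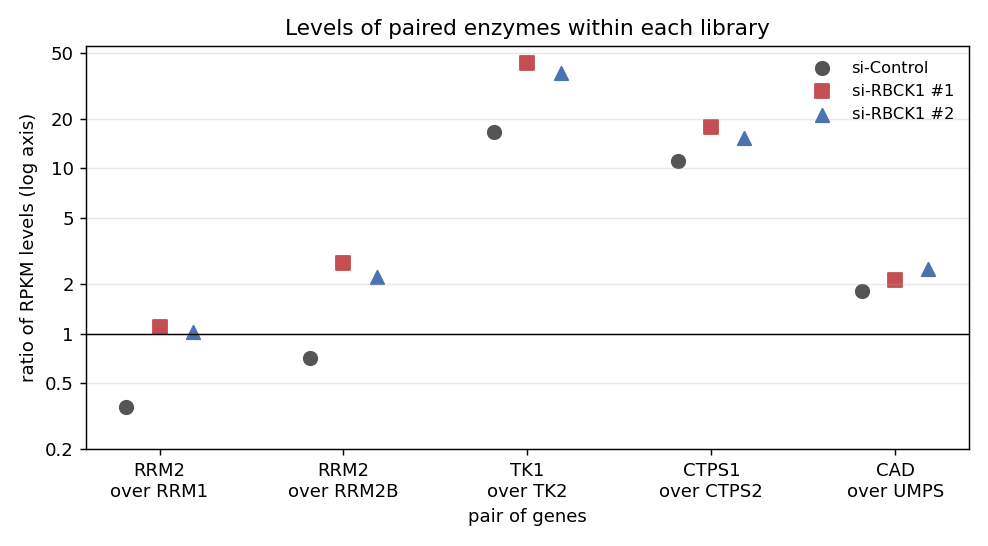
Ratio of the RPKM levels of 5 gene pairs within each library, on a log axis, with 1 point per library and a line at equal levels. RRM2 over RRM1 and RRM2 over RRM2B lay below 1 with si-Control and above 1 with both siRNAs, and TK1 over TK2 went from 16.5 to 43.4 and 37.7.

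Thymidylate carries the base that DNA holds in place of the uracil of RNA, and its supply runs through TYMS, TK1, DTYMK and DUT. TYMS, which methylates dUMP to dTMP, lies on the plus strand at chr18:657604-673499. It is listed at 36.0 RPKM in control cells, 89.5 RPKM after si-RBCK1 #1 and 99.5 RPKM after si-RBCK1 #2, which gives log2 ratios of 1.29 and 1.44. These listed values need caution. The values of the other 8 members give the log2 fold change that the authors list in the same row. Those of all 106 other list genes with a listed fold change do so too, but those of TYMS do not. Its listed si-RBCK1 levels average 94.5 RPKM, while the authors' mean in that row is 95.5 RPKM. No gene length up to 50000 nt turns the listed TYMS values into whole reads, as 99.9% of the genes searched allow.

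A search over TYMS values with the listed decimals found 1 set that gives both whole reads and the row's listed log2 fold change. That set does not give the authors' mean of 95.5 RPKM, which lies above both of its si-RBCK1 values. In it TYMS stood at 36.0 RPKM in control cells, 59.5 RPKM after si-RBCK1 #1 and 69.5 RPKM after si-RBCK1 #2, from 2104, 3810 and 3998 reads. Each si-RBCK1 value is listed 30 RPKM above this set, and the si-Control value is the same. The log2 ratios become 0.71 and 0.93, with intervals of 0.65 to 0.80 and 0.87 to 1.03. TYMS was higher with both siRNAs either way, but at least 2-fold higher only as listed. Which values the sequencing gave was not tested further, and both are given below where TYMS enters. TYMS overlaps ENOSF1 on the other strand, at 10.3, 9.13 and 11.3 RPKM, and TYMSOS, at 1.09, 2.40 and 2.80 RPKM. Whether reads were counted by strand is not given in the sources used here.

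TK1, the cytosolic kinase that salvages thymidine, lies on the minus strand at chr17:76170160-76183285. It was the most abundant of the 9 transcripts, at 103.7 RPKM in control cells, 164 RPKM after si-RBCK1 #1 and 183 RPKM after si-RBCK1 #2. The log2 ratios of TK1 were 0.66 and 0.82, and their intervals ran from 0.62 to 0.71 and from 0.78 to 0.87. TK2, the mitochondrial counterpart, had lower levels with both siRNAs, with log2 ratios of -0.60 and -0.31. The TK1 level was 16.5 times the TK2 level with si-Control and 43.4 and 37.7 times it with the siRNAs.

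DTYMK phosphorylates dTMP to dTDP, the step that both thymidylate routes share, and lies on the minus strand at chr2:242615157-242626383. It stood at 40.1 RPKM in control cells, 50.1 RPKM after si-RBCK1 #1 and 48.4 RPKM after si-RBCK1 #2. The log2 ratios of 0.31 and 0.26 were the smallest among the 7 genes higher with both siRNAs, and both counting intervals lay above 0. DUT, which hydrolyses dUTP and so feeds dUMP to TYMS, lies on the plus strand at chr15:48623292-48635570. Its levels were 20.7, 20.04 and 19.1 RPKM in the order si-Control, si-RBCK1 #1 and si-RBCK1 #2. The DUT ratios of -0.04 and -0.11 were close to 0, and the counting interval held 0 with si-RBCK1 #1, at -0.14 to 0.05, but not with si-RBCK1 #2, at -0.21 to -0.02.

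DCK, the kinase that salvages deoxycytidine and the purine deoxynucleosides, lies on the plus strand at chr4:71859265-71896631. It had 22.2 RPKM in control cells, 22.2 RPKM after si-RBCK1 #1 and 21.1 RPKM after si-RBCK1 #2. The log2 ratios were 0.00 and -0.07, and both counting intervals, -0.08 to 0.09 and -0.16 to 0.01, held 0. A difference in DCK was therefore not detectable at this depth, which says nothing about spread between cultures.

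CTPS1 converts UTP to CTP and lies on the plus strand at chr1:41444971-41478237. It stood at 24.0 RPKM in control cells, 48.2 RPKM after si-RBCK1 #1 and 34.9 RPKM after si-RBCK1 #2. With si-RBCK1 #1 its log2 ratio of 0.97 fell just short of the 2-fold limit, although without the pseudocount the level was 2.01-fold the control. With si-RBCK1 #2 the ratio was 0.52. CTPS2, the paralog, had ratios of 0.23 and 0.06 at far lower levels, so that CTPS1 over CTPS2 went from 11.1 with si-Control to 17.8 and 15.2. UMPS, which completes UMP in the last steps of ring synthesis, lies on the plus strand at chr3:124449213-124468120. Its levels were 6.53, 10.7 and 9.41 RPKM in the same order, with log2 ratios of 0.63 and 0.47.

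**Figure D3:**
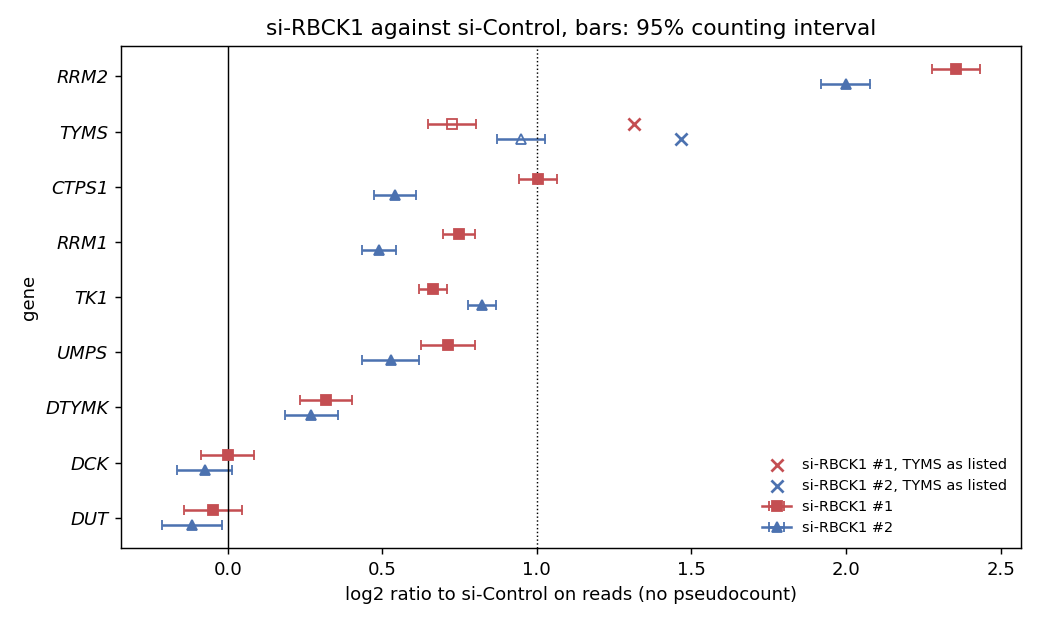
Ratio to si-Control for the 9 enzyme genes with each siRNA, as log2 on reads with no pseudocount. Bars are 95% counting intervals and the dotted line is 2-fold. Open TYMS symbols are the values that give its listed fold change, and crosses are TYMS as listed. RRM2 lies farthest to the right with both siRNAs, at 2.35 and 2.00, and the DCK intervals both span 0.

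A limit of 2-fold on log2(RPKM + 1) was passed by RRM2 and TYMS as listed, 2 of 9 genes with each siRNA and with both. Among all genes, 2.91% were at least 2-fold higher with si-RBCK1 #1, 2.50% with si-RBCK1 #2 and 1.46% with both. With the TYMS values that give its listed fold change, RRM2 alone of the 9 passed. None of the 9 was at least 2-fold lower, beside 3.27% of all genes with si-RBCK1 #1, 2.27% with si-RBCK1 #2 and 1.41% with both. TYMS as listed, at 1.29 and 1.44, lay inside the limit. CTPS1 at 0.97 with si-RBCK1 #1 lay just outside, and TK1 at 0.82 with si-RBCK1 #2 lay farther outside.

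Between the siRNAs, 7 of the 9 genes had a higher level with si-RBCK1 #1 than with si-RBCK1 #2, where 48.2% of all genes did. CTPS1 differed most, by 0.45 on the log2 scale, followed by RRM2 at 0.35 and RRM1 at 0.26. TK1 and TYMS went the other way, at -0.16 and -0.15, and TYMS at -0.22 with the values that give its listed fold change. Of the 8 genes with whole reads from the listed values, the counting interval of this difference left out 0 in 5. The matching share of all genes was not counted, so the 5 are not read as a trait of these enzymes. RRM1, RRM2, CTPS1 and UMPS were the 4 higher with si-RBCK1 #1, and TK1 was higher with si-RBCK1 #2. RRM1 holds 2 seed matches of si-RBCK1 #2, with which it was lower than with si-RBCK1 #1 but higher than with si-Control. RRM2, CTPS1 and UMPS hold no such match and were also lower with si-RBCK1 #2 than with si-RBCK1 #1. Whether the matches bear on the level of RRM1 was not tested. RBCK1 was also lower with si-RBCK1 #1 than with si-RBCK1 #2.

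The promoters of RRM2, TK1 and DUT are shown because these genes had the largest ratio, the highest level and a lower level with both siRNAs. Each is the 250 bases before a RefSeq gene start in GRCh38.p14, printed 5′ to 3′ on the gene's strand. Capitals mark CCAAT, the box bound by NF-Y, and the E2F spellings TTTGGCGC, TTTCCCGC and TTTCGCGC, on either strand. RRM2 and TK1 have a second start each in RefSeq and DUT has 4 starts in all, and the window with the most of these matches is printed.
RRM2, chr2:10122489-10122738, plus strand: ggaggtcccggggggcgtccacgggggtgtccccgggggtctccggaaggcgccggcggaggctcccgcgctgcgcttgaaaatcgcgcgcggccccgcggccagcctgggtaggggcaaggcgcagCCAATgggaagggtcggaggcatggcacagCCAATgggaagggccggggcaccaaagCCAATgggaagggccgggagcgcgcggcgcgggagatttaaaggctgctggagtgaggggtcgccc
TK1, chr17:78187053-78187302, minus strand: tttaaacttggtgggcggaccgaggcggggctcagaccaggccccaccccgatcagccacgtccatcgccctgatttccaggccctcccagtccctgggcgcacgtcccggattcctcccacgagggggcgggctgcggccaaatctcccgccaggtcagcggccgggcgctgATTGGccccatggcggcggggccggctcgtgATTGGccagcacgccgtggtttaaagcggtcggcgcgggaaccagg
DUT, chr15:48331947-48332196, plus strand: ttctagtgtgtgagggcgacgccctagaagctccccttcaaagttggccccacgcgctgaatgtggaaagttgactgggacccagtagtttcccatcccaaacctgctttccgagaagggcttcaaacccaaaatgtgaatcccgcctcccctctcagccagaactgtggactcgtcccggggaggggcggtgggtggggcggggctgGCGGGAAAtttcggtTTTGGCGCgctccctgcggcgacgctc
RRM2 holds CCAAT 3 times in this window, beginning 123, 93 and 66 bases before the start. TK1 holds it on the other strand, as ATTGG, at 77 and 46 bases before the start. DUT holds no CCAAT but 1 TTTGGCGC and 1 TTTCCCGC.

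Over all 9 genes, CCAAT stood in a window of 4, RRM1, RRM2, TK1 and DTYMK, against 37.0% of 27305 genes in the RefSeq table and 32.0% of its 35116 windows. The E2F spellings stood in TYMS and DUT, 2 of 9, against 2.85% of genes and 2.32% of windows. TTTGAA, the core of the cell cycle homology region, stood in RRM1, DUT and UMPS, against 16.1% of genes and 13.3% of windows. GGGCGG, the GC box, stood in 7 of 9, against 46.2% of genes and 42.6% of windows. Among the 4 genes with CCAAT, the log2 ratios with si-RBCK1 #1 ran from 0.31 for DTYMK to 2.27 for RRM2. Of the 2 genes with an E2F spelling, TYMS was higher with both siRNAs, while the DUT ratios of -0.04 and -0.11 were close to 0. A match is a description of the letters and no site, and a spelling that is missing says only that these letters are not in the window.

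The other genes of the pathway were counted from a list of 22, of which 21 had a mean of at least 1 RPKM. Their median log2 ratios were 0.07 and 0.06, with 11 of 21 higher with both siRNAs and 7 lower with both. CAD, which carries out the opening steps of ring synthesis, stood at 11.9, 22.6 and 23.0 RPKM, with ratios of 0.87 and 0.90. DHODH, the mitochondrial enzyme between CAD and UMPS, had 0.13 and 0.07. The genes on both sides of DHODH in the route were thus higher by more than DHODH itself, whose counting intervals held 0 with each siRNA. DCTPP1, which hydrolyses dCTP, was the 1 gene of this list at least 2-fold higher with both, at 19.4, 51.6 and 57.1 RPKM and ratios of 1.36 and 1.51. UPP1, which splits uridine to uracil, was the 1 at least 2-fold lower with both, at 66.4, 31.3 and 28.5 RPKM and ratios of -1.06 and -1.19.

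Of 12 genes of nucleotide breakdown and dNTP hydrolysis, 8 passed the mean of 1 RPKM, with 3 higher and 4 lower with both siRNAs and medians of -0.21 and -0.02. With no filter on low values the medians of this list had the other sign, at 0.05 and 0.08. DPYD, the first enzyme of pyrimidine breakdown, was at least 2-fold lower with both, at 3.48, 0.396 and 0.578 RPKM and ratios of -1.68 and -1.51. Both si-RBCK1 values lay below 1 RPKM, so DPYD passed the mean of 1 RPKM only through its si-Control level. This filter thus favours a lower call for it. SAMHD1, which hydrolyses deoxynucleoside triphosphates, had 0.22 and 0.24. The 11 folate cycle genes had medians of -0.02 and -0.03 and the 17 purine synthesis genes 0.12 and 0.06, beside 0.66 and 0.48 for the 9 enzymes.

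MCM helicase and mitosis genes were set beside the 9 for comparison, and how similar the groups are was not measured. The 6 subunits of the MCM helicase, which opens DNA for replication, were all higher with both siRNAs, with medians of 1.32 and 1.37. MCM2, MCM3, MCM4, MCM5 and MCM7 were at least 2-fold higher with both. The 20 mitosis genes had medians of 0.05 and 0.08, with 10 higher and 8 lower with both and none at least 2-fold changed with both. By the mean of both ratios their highest gene was MKI67 at 0.87 and 1.03 and their lowest CCNB2 at -0.86 and -0.86. RRM2 alone of the 9 enzymes exceeded the MCM median with both siRNAs, and TYMS did so with si-RBCK1 #2 only, and only as listed. Since these groups were picked with results known, their difference was not tested.

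By the pair of ratios, the protein-coding genes nearest to the medians of the 9 enzymes were FRS2, BAP1, SLC19A1, DSN1 and TMX1, at Euclidean distances of 0.0045 to 0.0173 over the 2 comparisons. FRS2 is an adaptor of fibroblast growth factor receptors, BAP1 a deubiquitinase, SLC19A1 the reduced folate carrier, DSN1 a kinetochore component and TMX1 a thioredoxin-like protein of the endoplasmic reticulum. SLC19A1, which also belongs to the folate list, stood at 6.73, 11.3 and 9.75 RPKM, levels close to those of UMPS at 6.53, 10.7 and 9.41 RPKM. Both comparisons share the control library, and the likeness carries no more than these values.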

How the data were processed

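The authors deposited 1 table with an RPKM value for each of 44591 genes and 3 libraries from total RNA depleted of ribosomal RNA (48 h, 10 nmol/L siRNA, 1 library per condition). Per the labels, it was made with FastQC, Trimmomatic, TopHat2 and HTSeq on hg19. That the unit is RPKM was inferred from the values, which give whole reads within 0.003 reads for 12344 of 12359 genes searched. The deposited table also holds the authors' own comparison, namely a control value, a treated mean, a log2 fold change and, for each gene, p-value and q-value columns that were not used. The mean and fold columns served only to check that each row's values give them, within 1e-06 on the log2 scale.

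Ratios were differences of log2(RPKM + 1). The background was the 12403 genes, 10775 of them protein-coding, that averaged 1 RPKM or more, and 1 row with an entry that is not a number was left out. The 4 rows with a repeated symbol were kept apart. With 1 library per condition no test was run. Library totals were recovered from short RNAs of up to 200 nt, and reads per gene were those that give whole numbers in all 3 libraries at 1 length. Clopper-Pearson intervals (95%) cover counting error only, and reads are not independent molecules. The numbers 1 and 2 name siRNAs and pair nothing.

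The enzymes and lists were chosen with earlier results of these data known. Genes named are the 9 enzymes, RBCK1, their paralogs and partners RRM2B, TK2, CTPS2, CAD, DHODH and SAMHD1 (1 more is not reported here), the members of the pathway lists at least 2-fold changed one way with both siRNAs (at most 6 a list), the highest and lowest gene by the mean of both ratios of a list with none, and the 5 nearest genes. PRPS2, PFAS, IMPDH1, IMPDH2, SHMT2, the genes that overlap TYMS and the markers named were picked after their values were seen. siRNA sites were matched to GENCODE v29 transcripts (GRCh38), and promoters came from RefSeq (GRCh38.p14), where all 9 enzymes matched. Alternatives were pseudocounts of 0.1 and 5 RPKM, equal medians, equal totals, TYMS left out, limits of 1.5-fold and 4-fold, other filters on low values and protein-coding genes only. The TYMS values that give the row its listed fold change were an alternative chosen after seeing the data. The steps were tested on simulated data. The tools were scipy 1.17.1, numpy 2.4.6 and pandas 2.3.3 under Python 3.11.15, with matplotlib 3.10.9 for figures.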

Additional observations from a re-analysis of the deposited data

How the results depend on the processing

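No paired analysis was possible because there was a single library per condition, and for the same reason no replicate could be left out. Of 64 log2 ratios of the enzymes other than TYMS under alternatives, 54 moved by no more than the counting interval reaches from its own centre and 10 moved by more. The TYMS ratios as listed ran from 1.21 to 1.31 with si-RBCK1 #1 and from 1.35 to 1.46 with si-RBCK1 #2. The 2 with another sign were DCK with si-RBCK1 #1, at -0.01 with equal medians and -0.05 with equal totals. The median of the enzymes with si-RBCK1 #1 was 0.60 with equal totals in place of 0.66. The number at least 2-fold higher was 2 with each siRNA and with both. It was 1 in each without TYMS and 1 in each with the TYMS values that give its listed fold change. With a limit of 1.5-fold it was 6 with si-RBCK1 #1 and 3 with si-RBCK1 #2 and with both. Of all 12403 genes, 1499, 1400 and 926 passed that limit in the same order. With a limit of 4-fold it was 1 with si-RBCK1 #1 and 0 with si-RBCK1 #2 and with both, RRM2 being the 1. Of all genes, 24, 17 and 5 passed 4-fold. A pseudocount of 0.1 RPKM brought CTPS1 past 2-fold with si-RBCK1 #1, for 3 genes with TYMS as listed, beside 616 of all 12403 genes. The other scalings multiplied the si-RBCK1 libraries by factors whose log2 ran from -0.06 to -0.01. Of the list medians under alternatives, 7 had the other sign: those of mitosis with si-RBCK1 #1 and equal totals, of nucleotide breakdown and of the transporters with no filter, and of the folate cycle with a mean of at least 5 RPKM. A pseudocount of 0.1 RPKM gave 1 gene of breakdown and 1 of purine synthesis at least 2-fold higher with both siRNAs in place of 0. With a pseudocount of 5 RPKM the lower calls of UPP1 and DPYD were lost, and with a mean of at least 5 RPKM that of DPYD. Depth limits DCK and the DUT ratio with si-RBCK1 #1, whose counting intervals held 0, and spread between cultures could not be measured for any gene.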

Other observations

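Purine synthesis supplies the other deoxynucleotides, and 9 of its 17 genes were higher with both siRNAs and 3 lower with both. PRPS1, which makes the phosphoribosyl donor that UMPS also uses, was the highest by the mean of both ratios, at 20.1, 43.5 and 40.8 RPKM with si-Control, si-RBCK1 #1 and si-RBCK1 #2 and log2 ratios of 1.08 and 0.99. IMPDH1, which commits the route to guanine nucleotides, had 0.91 and 1.04 from 20.7 RPKM in control cells. Its paralog IMPDH2 had higher levels, at 83.5, 102 and 91.8 RPKM, and smaller ratios of 0.29 and 0.14. PRPS2, the paralog of PRPS1, had 0.63 and 0.60 and PFAS, an enzyme of ring assembly, 0.77 and 0.76. ADK, which salvages adenosine, was the lowest with each siRNA, at 20.6, 12.6 and 11.5 RPKM and ratios of -0.67 and -0.78. None of the 17 was at least 2-fold changed with both siRNAs on the scale of log2(RPKM + 1), and 1 was at least 2-fold higher with both when the pseudocount was 0.1 RPKM.

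In the folate cycle, 5 of 11 genes were higher with both siRNAs and 6 lower with both. By the mean of both ratios the highest was SLC19A1, the carrier of reduced folates, at 0.67 and 0.48. By the same mean the lowest was MTHFD2, a mitochondrial enzyme of one-carbon supply, at 149, 104 and 86.3 RPKM and ratios of -0.51 and -0.78. SHMT2, which loads folate with its carbon unit in mitochondria, was also lower, at -0.51 and -0.41. Of 4 nucleoside transporters, SLC29A1 alone had a mean of at least 1 RPKM, at 17.2, 30.9 and 32.1 RPKM and ratios of 0.81 and 0.86.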
